A study of Mus with 4 samples.

Results

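The effect of the host's diet on tumors of control hairpin cells was described as the array labelled shCtrl-HFD minus the array labelled shCtrl-NC. Of 19505 genes with a symbol on the arrays, 10021 had a mean over the 4 arrays of the series at or above 5.73, the median row mean on the log2 scale, and these are the genes counted below. Both tumors came from the mouse renal adenocarcinoma line Renca, whose cells stably carried a control short hairpin RNA (shCtrl). The hosts were male BALB/cCrSlc mice, bought at an age of 4 to 6 weeks, which ate normal chow (NC, the CE-2 diet) or a high-fat diet (HFD, the HFD-60 diet) for 17 weeks. Cells were injected under the skin of the flank, and 2 weeks later the tumors were taken for RNA. The other 2 arrays of the series, shNrf3-NC and shNrf3-HFD, hold tumors of Renca cells with a hairpin against Nrf3 under the same diets. They share no array with the shCtrl difference and are set beside it. With 1 array for each group, and no word in the labels on whether tumors were pooled, no difference has a replicate check and no test was made.

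A subcutaneous tumor is a mixture of cancer cells, fibroblasts that lay down collagen and other matrix, vessels, and immune cells such as macrophages and neutrophils. A high-fat diet enlarges the host's fat depots and raises circulating lipids and insulin, and fat tissue under the skin of the flank adjoins such a tumor. Fat and tumor stroma both make cytokines and chemokines, which draw immune cells in. In bulk RNA, fewer cells of a type and less RNA per cell cannot be told apart.

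Renca cells are epithelial, and the keratin genes of simple epithelia were strong on all arrays. Krt8 read 14.42 on shCtrl-NC and 15.08 on shCtrl-HFD, and Krt18 read 15.17 and 15.90. Of 24 measured kidney epithelium markers, which include Krt8 and Krt18, 10 passed the level filter. Among the others, Pax8, Lhx1 and Slc34a1 read below the median of the negative control rows on all 4 arrays. Nfe2l3, the gene that encodes Nrf3 and the target of the hairpin the control tumors lack, read 6.22 on shCtrl-NC and 5.77 on shCtrl-HFD. It read 5.56 on shNrf3-NC and 6.05 on shNrf3-HFD, so the 4 readings lay within 1 unit of each other, close to the control rows, and arrays are called by their labels.

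By its positive control rows and the number of genes above control rows, shCtrl-NC had the weakest signal of the 4 arrays, and this touches every difference below. The control rows bioB, bioC, bioD and cre went the other way and were highest on shCtrl-NC. There bioB read 10.31 and cre 14.11, against 9.69 to 10.13 and 13.66 to 13.98 on the other arrays. Its positive control rows had a median of 9.19, against 9.57 to 9.75 on the other arrays, and 3948 of the filtered genes read above its own 95th percentile of negative control rows, against 4431 to 4951. Negative control medians were 5.35 to 5.39 on the 4 arrays and 95th percentiles 8.97 to 9.35, so readings below about 9 lie within the spread of those rows. Over the filtered genes the median shCtrl difference was 0.26 on the deposited scale and 0.02 after cyclic loess, a scaling that evens out shifts between arrays that depend on level. With the genes ranked by level and cut into 10 groups, the median was -0.02 in the lowest group and 0.40 in the highest. Genes differed by their span on the genome too. Of 4 groups by span, the one with the shortest genes (median span 5.43 kb) had a median difference of 0.38 with 22.7% of genes 2-fold or more higher, and the one with the longest (100.3 kb) had 0.15 and 9.06%. Whether weak signal or span had a part in any single difference was not tested. The loess value is therefore given beside the lists and most of the main genes. The deposited values reach 19.93, above the ceiling of 16 that a 16-bit scan allows on the log2 scale, so a fold here is a fold on the deposited scale.

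**Figure D1:**
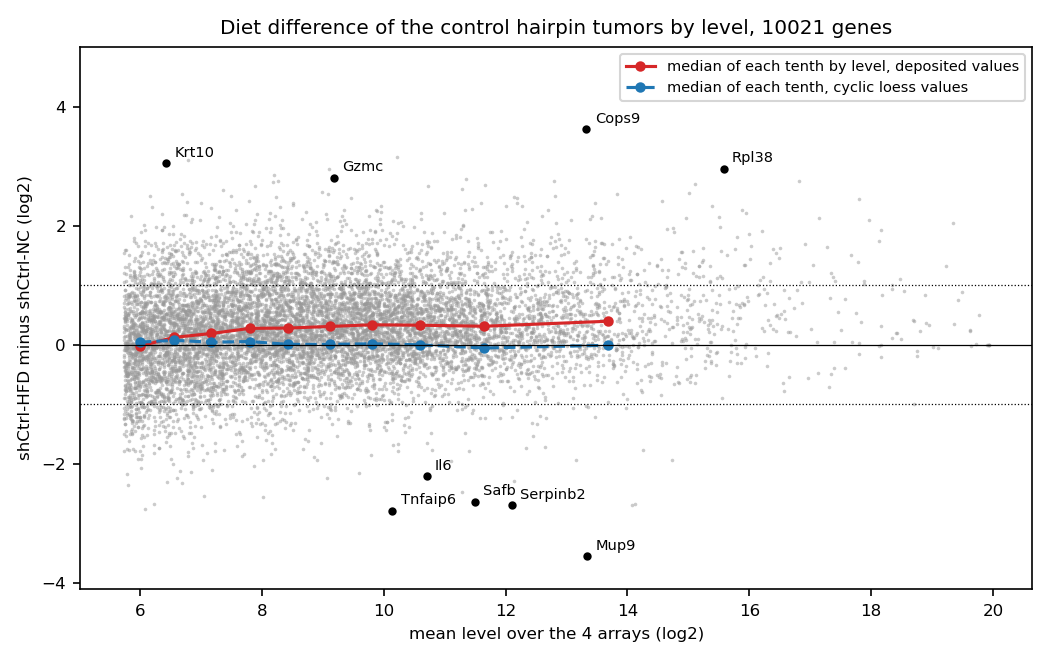
The difference shCtrl-HFD minus shCtrl-NC (log2, vertical axis) of each of 10021 genes against its mean level over the 4 arrays (log2, horizontal axis), with medians of 10 groups of genes ranked by level on deposited and on cyclic loess values and dotted lines at 2-fold. The deposited medians climb from -0.02 to 0.40 with level, while Serpinb2, Tnfaip6, Il6, Safb and Mup9 lie far below 0 and Cops9, Krt10, Gzmc and Rpl38 far above.

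A difference of 1 on the log2 scale is 2-fold. On the deposited values 1468 genes (14.6%) read 2-fold or more higher in shCtrl-HFD and 391 (3.9%) read 2-fold or more lower, so 79.0% of these genes were higher. After loess the counts were 866 higher and 621 lower, 58.2% higher, and centring by array medians gave 750 and 830, 47.5% higher. Of the 1468 genes, 855 were again 2-fold higher after loess, and of the 391 genes 374 were again 2-fold lower. The excess of higher genes thus shrank with loess and was gone after centring. Both scalings moved the median difference down, from 0.26 to 0.02 with loess and -0.05 with centring. Most genes already 2-fold lower therefore had to stay lower, and their number does not show that they are firmer than the higher genes. For the shNrf3 arrays 187 genes (1.87%) were 2-fold or more higher in HFD and 504 (5.03%) lower.

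The 4 arrays show which of the 2 shCtrl arrays stood apart. Of the 1468 higher genes, shCtrl-NC read 2-fold or more below all 3 other arrays in 511 (34.8%), and shCtrl-HFD read 2-fold or more above all 3 others in 113 (7.70%). Of the 391 lower genes, shCtrl-NC lay above all others by 2-fold in 87 (22.3%) and shCtrl-HFD below all others in 33 (8.44%). Over all filtered genes shCtrl-NC was the lowest array in 41.6% and shCtrl-HFD the highest in 36.7%. A gene low on shCtrl-NC alone counts as higher in shCtrl-HFD, so readings on all 4 arrays are given for the main genes.

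Single genes are given first, chosen with their values known, and none of them speaks for a gene group. Each of those from Tnfaip6 to Adm was lower in HFD with both hairpins. Tnfaip6 encodes TSG-6, a secreted protein that binds hyaluronan in inflamed tissue. It read 11.89 on shCtrl-NC and 9.10 on shCtrl-HFD, and 10.87 on shNrf3-NC and 8.69 on shNrf3-HFD. Both NC readings lay above both HFD readings, and the shCtrl difference was 6.88-fold (-2.78, or -3.11 after loess). Serpinb2, which encodes an inhibitor of plasminogen activators, read 14.01 on shCtrl-NC and 11.33 on shCtrl-HFD, and 13.73 and 9.32 on the NC and HFD arrays of shNrf3. The diets did not overlap for Serpinb2 either, with a shCtrl difference of 6.43-fold (-2.68, or -3.06 after loess). Il6, the cytokine that drives the acute phase response, read 12.46 on shCtrl-NC, 10.25 on shCtrl-HFD, 10.82 on shNrf3-NC and 9.29 on shNrf3-HFD. Here too both NC readings were the higher ones, with a shCtrl difference of -2.20 (-2.54 after loess).

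Rgs16, which shortens signals of G protein-coupled receptors, read 10.12 on shCtrl-NC and 7.89 on shCtrl-HFD, and 10.14 and 8.13 with shNrf3. Inhba, the activin A subunit gene, read 11.23 and 9.55, and 10.47 and 9.37 with shNrf3. The NC readings of both genes lay above the HFD readings, by -2.23 and -1.68 in shCtrl (-2.53 and -2.00 after loess). Fst, whose product follistatin binds activin, differed by -1.17 in shCtrl and -1.23 in shNrf3. Il33 and Il1a, alarmins released from damaged cells, differed by -0.96 and -0.85 in shCtrl and by -2.08 and -0.87 in shNrf3. Vegfa, the main growth factor of vessels, read 12.59 on shCtrl-NC and 11.58 on shCtrl-HFD, a difference of -1.01 (-1.38 after loess), and differed by -1.08 in shNrf3. Adm, which encodes the vessel-relaxing peptide adrenomedullin, differed by -1.21 and -1.81.

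For the gene lists, members 1.5-fold or more apart were counted over all measured members. Over all 19505 genes the background of such a count was 20.9% higher and 19.2% lower in shCtrl, and 13.3% and 12.7% in shNrf3. Over the filtered genes it was 31.2% higher and 10.7% lower in shCtrl. These backgrounds were counted on deposited values only, so list counts after loess have no background beside them. Beside each list's deposited median the text gives other scalings, among them, for lists with many weak members, the median with every reading below its array's control median set to that median. A list whose middle members are that weak on both arrays then has -0.03, the difference of the control medians themselves. The genes of the IL-6 and acute phase list, 26 of them measured, had a median of -0.20 in shCtrl (-0.23 after loess, -0.03 with low readings at the control median). Of these, 6 were higher and 6 lower, or 1 and 7 after loess, against 15 lower and 0 higher in shNrf3 with a median of -0.80. Lbp, which hands bacterial lipopolysaccharide to its receptor, and the serpin gene Serpina3n differed by -0.91 and -0.82 in shCtrl. Lcn2, an iron-scavenging lipocalin, differed by 0.83 the other way. The wider cytokine lists did not read lower in shCtrl. Of 40 interleukin and TNF family cytokine and receptor genes 12 were higher and 6 lower (median 0.04, or 0.09 after loess with 9 and 8, and 0.44 over members past the level filter). Of 25 genes of NF-kappaB feedback and adhesion 8 were higher and 2 lower (median 0.32, or 0.08 after loess with 4 and 5). The shares higher of these lists, 30% and 32%, lie near the 31.2% of the filtered genes, so neither list stood out as higher. In shNrf3 the medians of these lists were -0.31 and -0.75.

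Chemokine genes were split. Of 27 CC chemokine and receptor genes 8 (29.6%) were higher and 9 (33.3%) lower (median 0.01, or -0.03 after loess). The share higher lies near the 31.2% of the filtered genes. The share lower lies above the 19.2% of all genes and the 10.7% of the filtered genes. Ccl2, which draws monocytes, read 10.44 on shCtrl-NC, 8.66 on shCtrl-HFD, 11.63 on shNrf3-NC and 10.24 on shNrf3-HFD. The shCtrl-HFD array was thus the lowest of the 4 by over 2-fold, with a difference of -1.77 from shCtrl-NC (-2.10 after loess). Ccl8 differed by -1.52 and Ccl11, an attractant of eosinophils, by -1.65, from readings of 12.57 and 11.75 on shCtrl-NC. Ccl4 and Ccl24 differed by -1.14 and -1.93, and Ccl24 was near the control rows on shCtrl-HFD (5.60). Against these, Ccl12, a further monocyte attractant, read 7.74 on shCtrl-NC, a difference of 2.26, and 10.41 and 11.35 with shNrf3, so that shCtrl-NC was the low array. The CXC list had a median of -0.18 over 22 genes (-0.07 after loess, -0.03 with low readings at the control median), with 5 (22.7%) higher and 4 (18.2%) lower. These shares lie near the 20.9% and 19.2% of all genes and are no result about the list. Its Cxcl5, which draws neutrophils, read 11.44 on shCtrl-NC and 9.68 on shCtrl-HFD against 11.18 and 10.83 with shNrf3.

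Arg1, the arginase gene of alternatively activated macrophages, was low on the shCtrl-HFD array alone. It read 13.08 on shCtrl-NC and 11.15 on shCtrl-HFD, and 14.59 and 13.80 on the NC and HFD arrays of shNrf3. Mmp12, the macrophage elastase gene, read 15.25 and 13.32, and 15.32 and 15.06 with shNrf3. In both genes the 3 other arrays lay above shCtrl-HFD, by more than 3-fold at the nearest, and the shCtrl differences were both -1.93 (both -2.34 after loess). The macrophage and monocyte markers as a list did not read lower. Of 33 measured markers 14 were higher and 5 lower (median 0.50, or 0.26 after loess), and shCtrl-NC was the lowest array for 19. The complement genes C1qb and C1qa differed by 2.28 and 1.51, Aif1 by 1.70 and the Fc receptor gene Fcgr1 by 1.53, each with shCtrl-NC as the lowest array. The defining markers Csf1r, the receptor that keeps macrophages alive, and Adgre1 differed by 0.50 and 0.16 (0.14 and -0.11 after loess). The scavenger receptor gene Cd163 and the mannose receptor gene Mrc1 differed by -1.24 and -0.60 in shCtrl.

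Matrix genes and fibroblast markers read lower in shCtrl-HFD. Of 27 fibroblast and pericyte markers 14 were lower and 4 higher, with a median of -0.65 (-0.80 after loess), and their median level was 10.10 on shCtrl-NC, 9.14 on shCtrl-HFD, 8.95 on shNrf3-NC and 7.98 on shNrf3-HFD. The shCtrl-NC array was the highest for 17 of the 27. Of 23 collagen genes 11 were lower and 1 higher, with a median of -0.53 (-0.52 after loess, -0.24 with low readings at the control median). Of 37 genes of matrix glycoproteins and proteoglycans 12 were lower and 2 higher, with a median of -0.39 (-0.70 after loess). The fibroblast list shares 7 genes with these matrix lists, Lum, Postn and Dcn among them, so they are not separate evidence. In shNrf3 the medians of the 3 lists were -0.65, -0.50 and -0.98.

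Postn, which encodes periostin, a matrix protein of activated fibroblasts, read 16.02 on shCtrl-NC and 14.26 on shCtrl-HFD, and 13.89 and 12.85 with shNrf3. Lum, the gene of the collagen-binding proteoglycan lumican, read 13.53 and 11.75, and 11.57 and 8.73 with shNrf3. The HFD array was the lower one with each hairpin, but shCtrl-HFD lay above shNrf3-NC in both genes. The shCtrl differences were -1.77 and -1.78 (-2.18 and -2.13 after loess). Lox, the lysyl oxidase gene whose enzyme cross-links collagen, read 13.14 and 11.42, and 13.32 and 11.44 with shNrf3. For Lox both NC readings lay above both HFD readings, and the shCtrl difference was -1.73 (-2.11 after loess). Thbs2 differed by -1.23, Dcn, which encodes decorin, by -1.06, and the smooth muscle actin gene Acta2 by -1.23. The main fibrillar collagen genes differed less, Col1a1 by -0.04 and Col1a2 by -0.83, and Col16a1 and Col6a3 differed by -1.67 and -1.10. The lists held 4 fibroblast and pericyte, 1 collagen and 2 matrix glycoprotein members 1.5-fold or more higher, not all of them named here. Genes that went this way included S100a4 (1.30), the PDGF receptor gene Pdgfrb (0.65) and Pcolce (0.87), whose product helps process procollagen.

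Genes for enzymes that cut matrix, and their inhibitors, were mixed. Of 27 metalloproteinase and inhibitor genes 10 were lower and 6 higher, with a median of -0.30 (-0.37 after loess), which was -0.03 with low readings at the control median. The collagenase gene Mmp13 and the gelatinase gene Mmp9 differed by -1.19 and -1.43, and Mmp14 and Timp1 by 0.78 and 0.93. Of 19 genes of the plasminogen system and serpins 6 were lower and 2 higher, with a median of -0.37 (-0.63 after loess). F3, the tissue factor gene that starts clotting, differed by -0.77, Plat, the tissue plasminogen activator gene, by -0.66, and S100a10 by 0.97. Endothelial markers had a median of -0.27 (-0.30 after loess, -0.08 with low readings at the control median), with 9 of 24 lower and 2 higher. Cdh5, the adhesion gene of endothelial junctions, differed by -0.89 and Pecam1 by -0.47. Of the 2 higher markers, not named here, 1 was 2-fold or more higher, and 13 of the 24 passed the level filter.

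The lowest differences of all belonged to major urinary protein genes, which encode carriers of pheromones made chiefly by the liver. Mup9 read 16.08 on shCtrl-NC and 12.53 on shCtrl-HFD, and 17.58 and 7.17 with shNrf3. Of 9 measured members 8 were lower and 0 higher, with a median of -2.22 in shCtrl (-2.00 after loess) and of -6.43 in shNrf3. With low readings at the control median the shCtrl value was -0.95. Both NC arrays lay above both HFD arrays for Mup9, Mup22, Mup19 and Mup2, though Mup9 on shCtrl-HFD was still well above the control rows. These genes are near-identical copies, so a probe set may read several of them and single members are uncertain. The defining hepatocyte markers Alb and Ttr read below the control median on all 4 arrays, and 5 of 16 measured hepatocyte markers were lower and 0 higher (median -0.40, or -0.16 after loess, and -0.03 with low readings at the control median). Cyp2e1, an enzyme of liver and fat, read 8.82 and 6.98, and 10.11 and 4.89 with shNrf3.

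**Figure D2:**
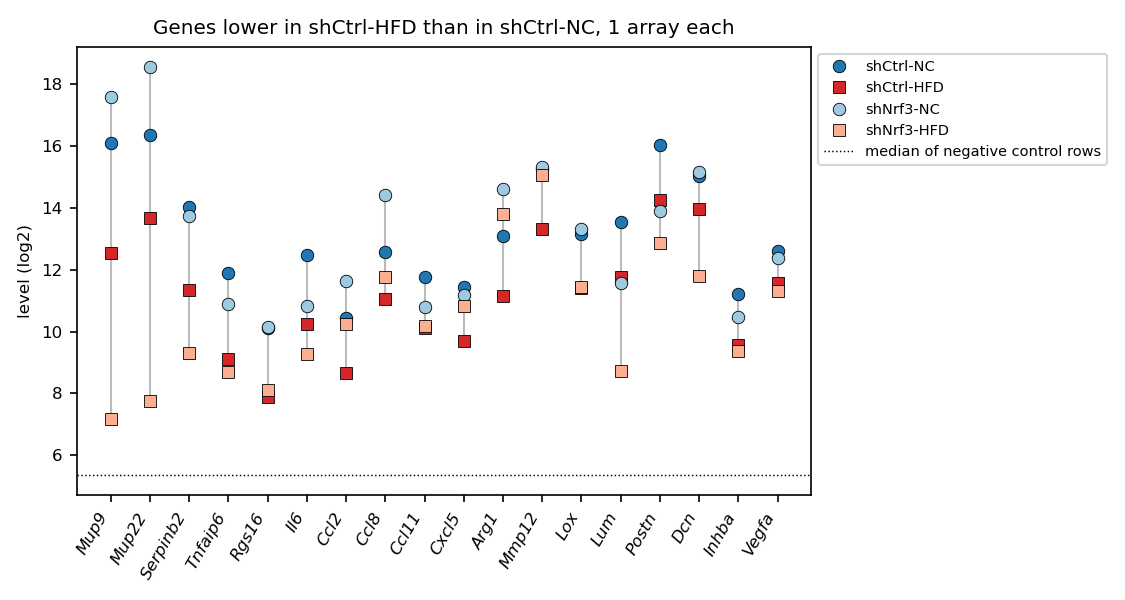
Level (log2, vertical axis) of 18 genes lower in shCtrl-HFD than in shCtrl-NC, on each of the 4 arrays (circles NC, squares HFD, dark shCtrl, pale shNrf3), with the mean over arrays of the negative control median dotted. For Tnfaip6, Rgs16, Il6 and Lox both NC circles lie above both HFD squares, whereas for Arg1 and Mmp12 the shCtrl-HFD square alone lies low.

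Several of the largest negative differences came from a high shCtrl-NC reading. Safb, which encodes a nuclear scaffold protein, read 13.36 on shCtrl-NC and 10.72 on shCtrl-HFD, and 10.99 and 10.90 with shNrf3. Atg16l2, a homolog of an autophagy gene, read 12.81, 10.34, 10.78 and 11.20 on the arrays in that order, and Lrrk1, a kinase gene of bone resorption, 11.12, 8.96, 9.10 and 9.17. In these 3 genes shCtrl-NC stood above the other arrays, which lay within 1 unit of each other. Cyp2f2, Gulp1 and Rftn2 read below 9 on all arrays and differed by -2.53, -2.24 and -2.14. Fam110c differed by -2.56, from 9.87 to 7.31.

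Genes of ribosomes, oxidative phosphorylation and the proteasome read higher in shCtrl-HFD, and shCtrl-NC was the lowest array for most of them. Of 39 cytosolic ribosomal protein genes 30 were higher and 0 lower (median 1.22, or 0.82 after loess), and shCtrl-NC was the lowest array for 37. Rpl38 read 13.80 on shCtrl-NC, 16.76 on shCtrl-HFD, 15.83 on shNrf3-NC and 15.93 on shNrf3-HFD, and Rpsa, the laminin receptor gene, 12.93, 15.63, 16.31 and 15.57. The 3 other arrays thus lay 2 units or more above shCtrl-NC. The median span of these genes was 3.67 kb. Of 49 oxidative phosphorylation genes 32 were higher and 0 lower (median 0.77, or 0.41 after loess) and shCtrl-NC lowest for 41. Atp5g1, a subunit of the ATP synthase, read 9.58 and 12.37, and 11.93 and 11.51 with shNrf3. The constitutive proteasome had 17 of 33 genes higher and 0 lower (median 0.61, loess 0.28, shCtrl-NC lowest for 27). In shNrf3 the medians of these 3 lists were 0.00, -0.29 and -0.13.

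Cops9, which encodes a small subunit of the COP9 signalosome, had the highest difference. It read 10.58 on shCtrl-NC and 14.20 on shCtrl-HFD, and 14.88 and 13.64 with shNrf3, again with shCtrl-NC alone low. The difference was 3.62 (3.22 after loess). Mtch1, Cip2a, Bckdhb, Rpl28, Ppp1r14b, Jagn1, Dpagt1, Ms4a4c and Uqcc2 also stood among the 15 highest, with differences from 2.66 to 3.16. In each of these 9 genes shCtrl-NC was the lowest array by 2-fold or more.

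Cell cycle genes read higher in shCtrl-HFD, with the shCtrl-HFD array often the highest. Of 45 measured genes, all past the level filter, 23 (51.1%) were higher and 0 lower, against 31.2% and 10.7% of the filtered genes. The median was 0.60, or 0.24 after loess with 10 higher and 0 lower, counts that have no loess background. The shCtrl-HFD array was the highest for 26 and shCtrl-NC the lowest for 23. Mcm5, a subunit of the replicative helicase, read 8.74 and 10.42, and 9.94 and 9.44 with shNrf3. The helicase gene Mcm2, the kinase gene Cdk4 and the anaphase regulator Cdc20 differed by 1.35, 1.33 and 1.29. E2f1, a transcription factor of S phase entry, differed by 1.24 at readings near the control rows (5.48 and 6.72).

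Type I interferon-stimulated genes read higher in shCtrl-HFD, and here shCtrl-HFD was the highest array for most. Of 32 measured genes 25 (78.1%) were higher and 0 lower, against a background of 31.2% and 10.7% over the filtered genes, since 31 of the 32 pass the level filter, with a median of 1.01 (0.73 after loess, 20 higher and 1 lower). The shCtrl-HFD array was the highest for 24 and shCtrl-NC the lowest for 20. Irf7, the transcription factor that amplifies interferon production, read 10.80 on shCtrl-NC and 12.20 on shCtrl-HFD, and 11.04 and 9.78 with shNrf3. For Irf7 the shCtrl-HFD array stood above all others, by 1.41 above shCtrl-NC (1.06 after loess). Samd9l, an antiviral gene, read 11.72 and 13.82, and 13.35 and 13.38 with shNrf3, so that shCtrl-NC was the low array. Isg20, an RNA-degrading enzyme gene, Ifit1, which binds foreign RNA, and Oas1a, a sensor of double-stranded RNA, differed by 1.99, 1.77 and 1.44. In shNrf3 the list's median was -0.40, with 1 gene higher and 11 lower.

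Genes of antigen presentation read lowest on shCtrl-NC. Of 17 genes of MHC class I presentation and the immunoproteasome 9 were higher and 0 lower (median 0.76, or 0.45 after loess), and shCtrl-NC was the lowest array for 15. Psmb9, a catalytic subunit of the immunoproteasome, read 8.25 and 10.24, and 12.39 and 10.39 with shNrf3, and Tap1, which pumps peptides to class I molecules, 10.65 and 12.14, and 13.56 and 12.88. Both shNrf3 arrays lay above both shCtrl arrays for these 2 genes. Of 12 class II genes 5 were higher and 1 lower (median 0.45, or 0.53 after loess). H2-Ab1 differed by 1.31 and H2-DMb1, which helps load peptides, by 1.62, with probe sets of the H2 family uncertain between close copies. The interferon-gamma induced GTPases and factors had 6 of 22 genes (27.3%) higher and 0 lower, with a median of 0.26 (0.12 after loess). With 21 of the 22 past the level filter, the share higher and the median lie near those of the filtered genes, 31.2% and 0.26. They show no rise of this list.

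Neutrophil markers read higher, 16 of 27 against 1 lower, with a median of 0.78 (0.51 after loess). Their median level was 6.95 on shCtrl-NC, 8.04 on shCtrl-HFD, 7.95 on shNrf3-NC and 8.37 on shNrf3-HFD, and shCtrl-NC was the lowest array for 21. Ngp, a protein of neutrophil granules, read 5.72 on shCtrl-NC and 8.25 on shCtrl-HFD, and 5.83 and 6.95 with shNrf3. Stfa2, a cysteine protease inhibitor of the stefin A cluster whose copies are close in sequence, read 6.97 and 8.94, and 7.67 and 9.68 with shNrf3. Both HFD readings lay above both NC readings for these 2 genes, at levels near the spread of the control rows. Cxcr2, the receptor for neutrophil-attracting chemokines, and Csf3r, the G-CSF receptor gene, differed by 2.06 and 1.96 in shCtrl and by 0.79 and 0.05 in shNrf3. The abundant defining markers S100a8 and S100a9 differed by 0.77 and 0.93 (0.38 and 0.51 after loess) and by 0.70 and 0.68 in shNrf3.

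Lymphocyte markers were near the control rows. T cell markers had a median of -0.54 (-0.50 after loess) with 9 of 26 lower and 1 higher, at median levels of 5.68 on shCtrl-NC and 5.46 on shCtrl-HFD. The defining markers Cd3e and Cd3g each read below the control median on 1 of the 2 shCtrl arrays. B and plasma cell markers had 7 of 16 lower and 0 higher (median -0.53, or -0.35 after loess), at median levels of 4.10 and 3.37. With each reading below the control median set to that median, the 2 medians were -0.03 and -0.03. Of 20 cytotoxic lymphocyte genes 6 were higher and 5 lower (median -0.09, or 0.14 after loess). The granzyme genes Gzmc and Gzmg, which encode proteases of killer cell granules, read 7.16 and 8.99 on shCtrl-NC and 9.97 and 10.88 on shCtrl-HFD. With shNrf3 they read 9.29 and 10.31 in NC and 10.32 and 12.42 in HFD, so HFD was the higher array with each hairpin. Granzyme A (Gzma) differed by -0.84 and the perforin gene Prf1 by 0.19, and the granzyme cluster holds similar copies.

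Lipid genes differed by pathway. Of 20 genes of fatty acid and triglyceride synthesis 10 were higher and 3 lower (median 0.60, or 0.34 after loess). The shCtrl-NC array was the lowest for 13 of the 20 and shCtrl-HFD the highest for 4. Scd1, the desaturase that makes monounsaturated fatty acids, read 13.16 on shCtrl-NC and 15.29 on shCtrl-HFD, and 16.56 and 14.82 with shNrf3. The diet difference was 4.38-fold higher in shCtrl (2.13, or 1.71 after loess) and of the opposite sign in shNrf3 (-1.74), with shCtrl-NC the lowest array. Elovl6, an elongase gene, Fads2, a desaturase of polyunsaturated fatty acids, and Fasn, the fatty acid synthase gene, differed by 1.60, 1.56 and 1.30, and by -0.55, -0.96 and -1.10 in shNrf3. Of 19 cholesterol synthesis and uptake genes 10 were higher and 0 lower (median 0.62, or 0.36 after loess). Here too shCtrl-NC was the lowest array for 13, and shCtrl-HFD was the highest for 8. The synthesis enzymes Cyp51, Sqle and Fdft1 differed by 1.71, 1.67 and 1.44. Of 28 fatty acid oxidation and PPAR target genes 7 (25%) were higher and 4 (14.3%) lower (median 0.19, or 0.03 after loess and with low readings at the control median). These shares lie between the backgrounds of all genes (20.9% and 19.2%) and of the filtered genes (31.2% and 10.7%). Cpt1a, which lets fatty acids into mitochondria, read 7.26 and 8.45, and 8.13 and 9.28 with shNrf3, the HFD array higher by 1.19 and 1.15. Acadvl, the enzyme for very long chains, differed by -0.76.

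Adipocyte markers read higher beside the lipid synthesis genes, with which they share Scd1, Fasn and Thrsp. Of 24 measured markers 12 were higher and 2 lower (median 0.57, or 0.50 after loess), and the median was -0.82 in shNrf3. The shCtrl median was 0.28 with low readings at the control median and 0.26 with centring. Their median level was 6.75 on shCtrl-NC, 7.43 on shCtrl-HFD, 8.21 on shNrf3-NC and 6.52 on shNrf3-HFD. The defining markers were Adipoq, the adiponectin gene, at 8.38 and 9.70, and 11.73 and 8.36 with shNrf3, and the lipid droplet gene Plin1, at 5.78 and 6.48, and 5.40 and 5.27. Fabp4, a fatty acid carrier of fat cells and macrophages, read 14.20, 15.58, 15.75 and 14.25 on the 4 arrays in that order. For Adipoq and Fabp4 the shCtrl-HFD and shNrf3-NC arrays gave the high readings. The part of fat tissue in the lipid results was not tested.

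Of 28 ATF4 and amino acid response genes 10 (35.7%) were higher and 3 (10.7%) lower (median 0.14, or 0.00 after loess). These shares are near the background of the filtered genes, 31.2% and 10.7%, and are no result about the list. Slc7a5, a transporter of large amino acids that feeds mTORC1, read 10.13 and 12.01, and 9.97 and 11.08 with shNrf3. Both HFD readings were the higher ones, by 1.88 (1.55 after loess) and 1.12. The serine and glycine enzymes Shmt2 and Phgdh differed by 1.93 and 1.47, and by -0.02 and -0.13 in shNrf3. Atf4 itself read 13.06 on shCtrl-NC and 11.96 on shCtrl-HFD, a difference of -1.10.

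Several genes of the epidermis were high on shCtrl-HFD alone. Krt10, a keratin of differentiated epidermis, read 6.45 on shCtrl-NC and 9.50 on shCtrl-HFD, and 5.02 and 4.72 with shNrf3. Its partner keratin gene Krt1 read 5.78 and 7.37, and 5.05 and 4.90 with shNrf3. The shCtrl-HFD array stood above all others for both, by 3.05 and 1.59 above shCtrl-NC (3.03 and 1.71 after loess). Krt77 and Krtdap differed by 1.27 and 1.44, and Dsg1a, a desmosomal cadherin of skin, by 1.25 or more. Of 27 keratinocyte markers 14 were higher and 2 lower (median 0.59, or 0.78 after loess). Only 8 of the 27 pass the level filter, and with low readings at the control median the median was -0.03, so the list as a whole rests on weak readings. The shCtrl-HFD array was the highest for 17 of the 27 and stood 2-fold above all others for 6. The markers of the basal layer Krt14 and Krt5 differed by 0.70 and 0.69, and by 1.08 and 0.82 in shNrf3. The median level of the list was 5.41 on shCtrl-NC and 5.71 on shCtrl-HFD, near the control rows. Whether skin in the piece taken had a part in these values was not tested.

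Genes of epithelial junctions had 11 of 33 (33.3%) higher and 2 lower, with a median of 0.35 (0.23 after loess, 0.04 with centring). With 26 of the 33 past the level filter, the share higher lies near the 31.2% of the filtered genes. The shCtrl-HFD array was the highest for 22 of the 33. Cldn3, a tight junction gene, read 7.01 and 8.93, and 7.58 and 7.81 with shNrf3. Marveld2, a protein of 3-cell junctions, read 6.80 and 8.45, and 6.38 and 7.64 with shNrf3, with HFD higher for each hairpin. Snai1, a repressor of epithelial genes, differed by -0.75 in shCtrl and -0.40 in shNrf3. Outside the rule for named genes and chosen after their values were seen, Sox9, a transcription factor of epithelial progenitors, read 9.59 on shCtrl-NC and 11.48 on shCtrl-HFD. With shNrf3 it read 9.73 and 9.60, so shCtrl-HFD stood alone, 3.69-fold above shCtrl-NC. Ace, the angiotensin-converting enzyme gene, chosen in the same way, read 12.83 and 14.34, and 11.44 and 11.65 with shNrf3.

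**Figure D3:**
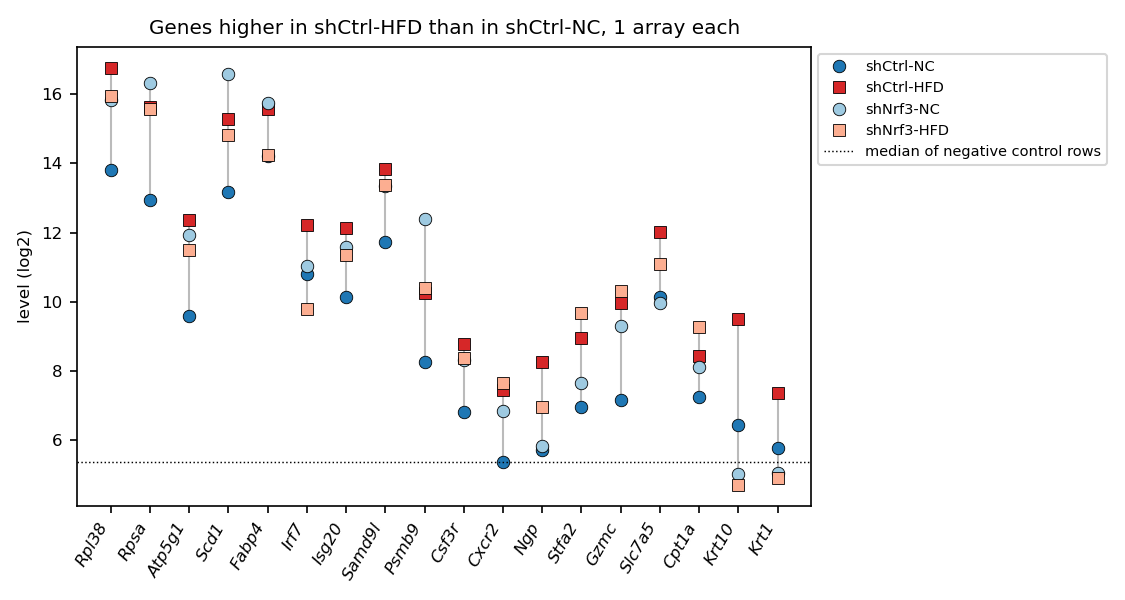
Level (log2, vertical axis) of 18 genes higher in shCtrl-HFD than in shCtrl-NC, on each of the 4 arrays (circles NC, squares HFD, dark shCtrl, pale shNrf3), with the mean over arrays of the negative control median dotted. For Rpl38, Rpsa and Atp5g1 the shCtrl-NC circle alone lies low, for Krt10, Krt1 and Irf7 the shCtrl-HFD square alone lies high, and for Ngp, Stfa2, Slc7a5 and Cpt1a both HFD squares lie above both NC circles.

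Among stress and signalling lists, the heat shock response had a median of 0.46 (0.06 after loess) with 6 of 19 genes (31.6%) higher and 0 lower. The genes of CNC factors and small Mafs, the family of Nrf3 and its partners, had 0.53 (0.30 after loess) with 3 of 10 (30%) higher and 0 lower. Those of retinoid handling had -0.35 (-0.34 after loess, -0.03 with low readings at the control median) with 10 of 22 lower and 5 higher. The hypoxia and glycolysis list had a median of 0.26 on the deposited values and -0.15 after loess, so its direction turned with the scaling. Of its 38 genes 12 (31.6%) were higher and 6 lower. Within it the glycolytic enzyme gene Pgam1 differed by 1.82, and the oxygen-sensing factor gene Hif1a, which read 16.23 and 15.34, by -0.89. The unfolded protein response list turned likewise (0.21, and -0.18 after loess). The antioxidant genes of the NRF2 type had 10 of 29 (34.5%) higher and 3 lower, with a median of 0.32 (0.07 after loess). For the heat shock, CNC, hypoxia and NRF2-type lists the shares higher lie near the 31.2% of the filtered genes. These shares are no result about the lists. Keap1, the inhibitor of NRF2, differed by 1.40, the glutathione transferase gene Gstp1 by 1.90, Hmox1 by -0.63 and Gclc, which starts glutathione synthesis, by -0.90. The clock genes Dbp, Per1 and Nr1d1 differed by 1.61, 1.24 and 1.04 in shCtrl and by -0.28, -1.38 and -0.64 in shNrf3. Their list had 5 of 18 genes (27.8%) higher and 2 (11.1%) lower (median 0.15, or 0.06 after loess). These shares too lie near the 31.2% and 10.7% of the filtered genes. Skeletal muscle markers had a median of -0.28 (-0.12 after loess, -0.03 with low readings at the control median) in shCtrl and of -1.38 in shNrf3, where shNrf3-NC was high. The muscle markers Mylpf and Ckm read 6.36 and 5.95 on shCtrl-NC and 7.13 and 6.40 on shCtrl-HFD, against 10.83 and 8.23 on shNrf3-NC.

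**Figure D4:**
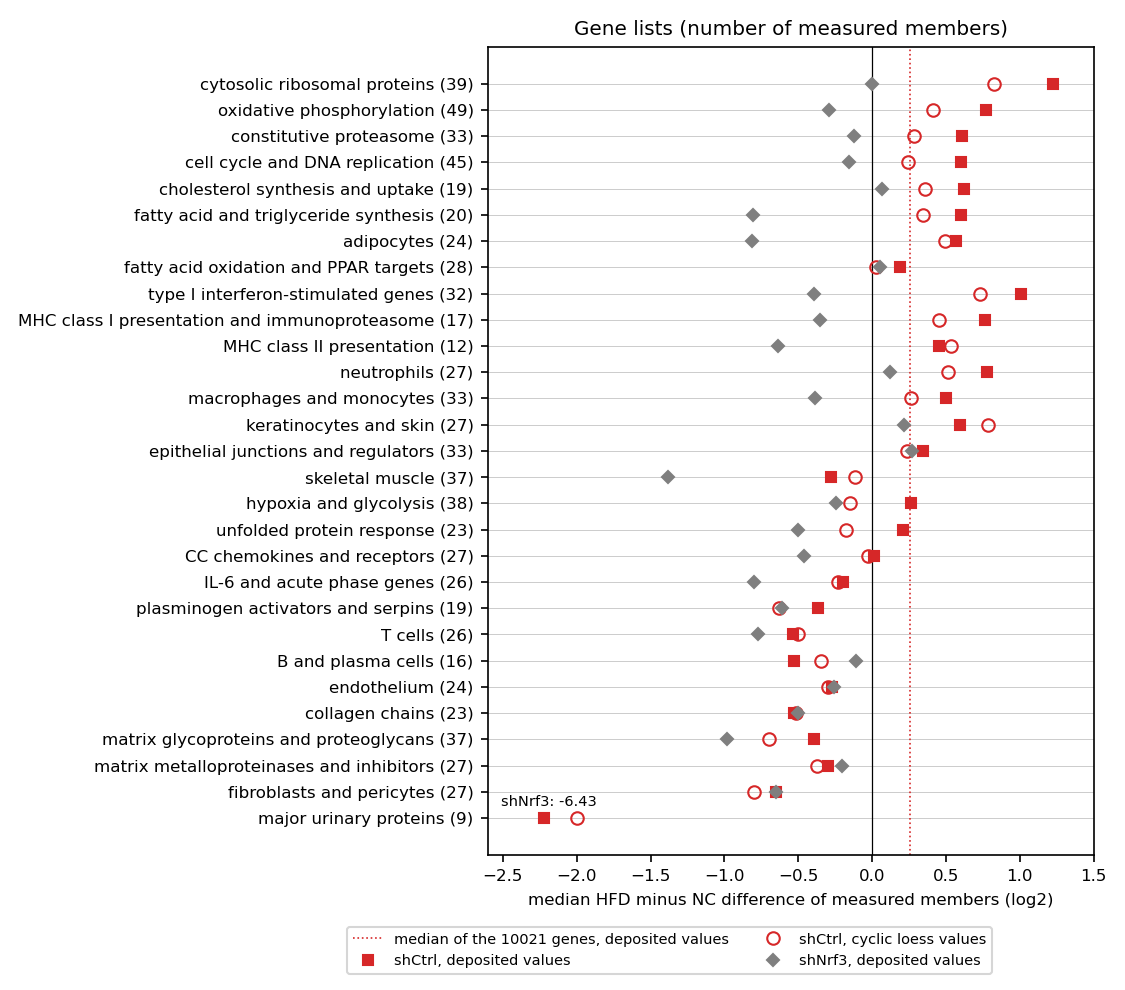
Median HFD minus NC difference (log2, horizontal axis) over the measured members of 29 gene lists, for shCtrl on deposited values (filled squares) and cyclic loess values (open circles) and for shNrf3 on deposited values (diamonds), with the shCtrl median of the 10021 filtered genes dotted. The lists also hold members below the filter, and over all 19505 genes that median was 0.02. Fibroblast, matrix and collagen lists lie below 0 with both hairpins, whereas the ribosomal, type I interferon, MHC class I and fatty acid and triglyceride synthesis lists lie above 0 in shCtrl and at or below 0.00 in shNrf3.

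The difference with diet was set beside that of the shNrf3 tumors gene by gene. In HFD 36 genes were 2-fold or more higher with both hairpins, which is 2.45% of the 1468 higher in shCtrl and 19.3% of the 187 higher in shNrf3. The first share stands against 1.87% of all filtered genes higher in shNrf3 and the second against 14.6% higher in shCtrl, so both lie near the background. Lower with both hairpins were 54 genes, which is 13.8% of the 391 in shCtrl, against 5.03% of all filtered genes, and 10.7% of the 504 in shNrf3, against 3.9%. Opposite ways were taken by 77 genes higher in shCtrl and lower in shNrf3 (5.25% of the 1468, background 5.03%) and by 9 genes the reverse (2.30% of the 391, background 1.87%). After loess all 54 shared lower genes were again 2-fold lower with both hairpins, and 29 of the 36 shared higher genes were again higher. After centring these numbers were 45 of 54 and 23 of 36, and after quantile normalization 48 of 54 and 30 of 36. Each of these scalings moved the median shCtrl difference down. Most shared lower genes therefore had to stay lower in shCtrl, and these numbers do not show that they are firmer than the shared higher genes.

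By the smaller of the 2 differences, the 10 leading genes lower with both hairpins were Mup9, Mup22, Serpinb2, Mup19, Mup2, Tnfaip6, Rgs16, Fam110c, Cyp2e1 and Lum. Their shNrf3 differences ran from -1.95 (Fam110c) to -10.78 (Mup22 and Mup2). The 10 leading genes higher with both were Stfa2, Gzmg, Sh2d1b1, Rnf152, Serpinb5, Slc19a1, Plcg2, Epb41l4b, Cx3cr1 and Marveld2. Plcg2, a phospholipase of immune receptor signalling, read 10.98 on shCtrl-NC and 12.60 on shCtrl-HFD, and 11.24 and 12.66 with shNrf3. Slc19a1, the folate carrier gene, read 7.09 and 8.61, and 7.60 and 9.06. Both HFD readings lay above both NC readings for these 2 genes, by 1.42 or more within each hairpin. Sh2d1b1, an adapter of natural killer cells, differed by 1.70 and 2.60, and Serpinb5, an epithelial serpin, by 1.52 and 1.62, at readings near the control rows.

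**Figure D5:**
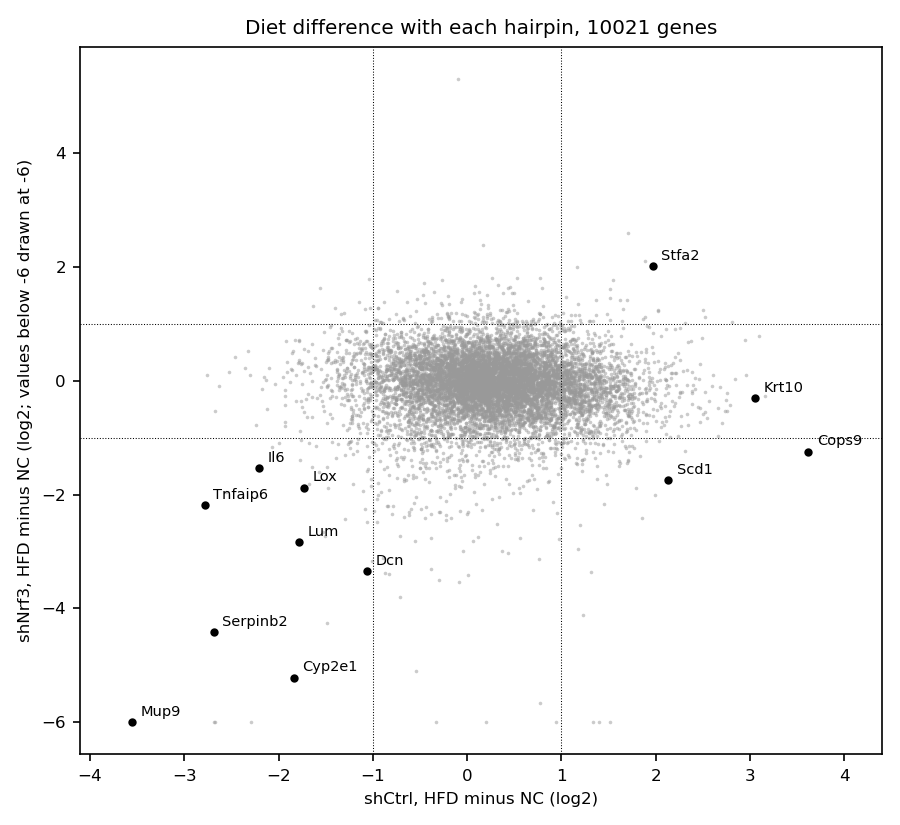
HFD minus NC difference (log2) in shNrf3 (vertical axis, values below -6 drawn at -6) against that in shCtrl (horizontal axis) for each of 10021 genes, with dotted lines at 2-fold. Serpinb2, Tnfaip6, Lum, Il6, Lox and Mup9 lie in the corner lower with both hairpins, Stfa2 in the corner higher with both, and Scd1 and Cops9 in the corner of opposite signs.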

How the data were processed

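RNA of 4 tumors or tumor pools was measured on 1 Affymetrix array each. The deposited log2 values are the authors' RMA output of Affymetrix Expression Console, per the submitters' processing notes. The sources used here name no version. Of 28846 rows 6640 are controls, and 19572 of 22206 transcript rows have 1 gene symbol in the platform annotation. For 55 genes with several probe sets the one with the highest mean was taken. Gene spans came from a RefSeq table of GRCm38.p6.

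Differences are shCtrl-HFD minus shCtrl-NC, with no test, since each group has 1 array. An array gives no read depth, and having so few arrays limits the precision. Alternatives were cyclic loess and quantile normalization (limma 3.58.1 in R 4.3.3), centring, other filters and folds, low readings set to the control median, and the mean of probe sets. Of 1652 entries in 59 gene lists 1494 were measured. Named were Nfe2l3, the 15 highest and 15 lowest genes with both shCtrl arrays above the control median, the 10 leading genes each way in both hairpins, and of each list up to 8 largest members, defining markers and members against its median. Predicted genes were not named, and not every gene within this rule is named in the text. Where a reading lay below the control median it was set to it, and the difference is written "or more". Members and lists were chosen with earlier results of these data known. The scripts were tested on simulated data.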

Additional observations from a re-analysis of the deposited data

Results flagged for a closer look

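Among the lists and leading genes, 1 list lay 1.5-fold or more from 0 in opposite directions with the 2 hairpins, and 1 leading gene did so by 2-fold or more. Other results with opposite signs, such as Scd1, stand in the report, and the difference between the hairpins was not tested, since each group has 1 array. The list of fatty acid and triglyceride synthesis genes had a median of 0.60 in shCtrl and -0.81 in shNrf3. Cops9, among the 15 highest genes, differed by 3.62 in shCtrl and -1.24 in shNrf3.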

How the results depend on the processing

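The counts depended on the scaling and the filter, and the cause was not tested beyond what each alternative's construction shows. Genes 2-fold higher in shCtrl-HFD numbered 866 with cyclic loess, 750 with centring, 867 with quantile normalization, 859 with a filter at the 75th percentile and 3127 at 1.5-fold. Genes 2-fold lower numbered 621, 830 and 694 with the 3 scalings in that order, 109 with that filter, 1537 with no filter and 1076 at 1.5-fold. Shared between hairpins were 11 higher and 30 lower genes with the stricter filter and 63 and 90 with none. With values at least 0.1 from 0 on both sides, list medians turned in direction in 10 cases. After centring, fatty acid oxidation was -0.12, ATF4 and amino acid response -0.17, complement -0.16 and the circadian clock -0.15. After loess hypoxia was -0.15, the unfolded protein response -0.18 and iron handling -0.10, and after quantile normalization the first 2 were -0.23 and -0.18. Skeletal muscle was 0.16 over members past the filter. Nearer 0 the sign turned too, as for the interferon-gamma list (0.26, or -0.04 centred), lipid uptake (0.26, or -0.05), TGF-beta and BMP signalling (0.09, or -0.15 with loess), insulin signalling (0.05, or -0.25 centred) and cytotoxic lymphocytes (-0.09, or 0.22 past the filter). Of the named genes Adgre1 turned to -0.11, -0.14 and -0.14 with loess, centring and quantile normalization, and Prf1 to -0.11 with centring. Each group has 1 array, so no replicate could be left out. No paired analysis was possible because the comparisons come from no test. Signal over background limits readings below about 9.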
